A study of Homo sapiens with 10 samples.

Results

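Transcripts of IGFBP2 and of the insulin-like growth factor (IGF) axis were examined in RS4;11 cells with and without acquired insensitivity to venetoclax. The 7 members are IGFBP2, IGFBP4, IGFBP7, IGF1R, INSR, IRS1 and IRS2, out of 63677 gene identifiers for which reads were counted. IGFBP2 was picked on its higher counts in the insensitive lines of these same data, so its own contrast is given as a description without a test. The other 6 members were chosen from the pathway by name, with earlier results of these data known. The RS4;11 line, long established in culture, comes from a BCP-ALL, a leukemia of B-lymphoid precursors, with a KMT2A rearrangement, and venetoclax is an inhibitor of the anti-apoptotic protein BCL-2. VENins lines were 5 cultures grown side by side in rising venetoclax concentrations and then kept under the drug, and VENsens lines were 5 cultures that received the solvent DMSO instead. According to the study's methods, cells went into each analysis after a wash to take venetoclax away. All 10 cultures descend from the same cell line, so they are parallel derivatives of a single leukemia and not separate leukemias.

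IGF1 and IGF2 are secreted hormones that bind the receptor tyrosine kinase IGF1R, while insulin binds the related receptor INSR, and both receptors pass the signal through the docking proteins IRS1 and IRS2 to the PI3K/AKT and RAS/MAPK branches. IGF binding proteins hold the ligands outside the cell and set how much of them can reach a receptor, and IGFBP2 also has an integrin-binding motif. IGF2R has no kinase and carries IGF2 as well as mannose 6-phosphate tagged enzymes to lysosomes. In normal marrow, IGF1 is a growth factor for B-cell precursors.

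Each line gave 1 library. The counts on genes were between 20631907 and 28323643 in VENsens libraries (median 24010870) and between 21145316 and 25394653 in VENins libraries (median 24611645). Levels are given as CPM, which are counts relative to the scaled size of each library. In the unstranded libraries, reads of overlapping genes on opposite strands cannot be told apart. Not all libraries of a condition were alike. Over 11220 genes with at least 5 CPM, the SD of the log2 difference between a library and the mean of the other 4 of its condition was 0.167 for VENsens line 2, with the other VENsens lines between 0.094 and 0.135. It was 0.213 for VENins line 5 and 0.179 for VENins line 4, with the other VENins lines between 0.122 and 0.145. In VENsens line 2 this difference rose with the exon length of the gene (Spearman rho 0.35 across genes, which are not independent replicates), in VENsens line 3 it fell with length (−0.31) and in VENins line 1 it rose (0.23). Fold changes also followed exon length: the median log2 fold change of VENins against VENsens was 0.08 in the fifth of genes with the shortest exons and −0.06 in the fifth with the longest, which holds IGF1R, INSR, IGF2R, IRS1 and IRS2. Values with a length and GC trend taken out together, or without one of these libraries, are given beside some of the results.

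The labeled cell type was checked against its markers. Of 9 markers of B-cell precursor leukemia 8 passed the filter on low counts, their summed level was between 2422 and 2762 CPM per library, and the most abundant was PAX5 at 707 CPM. CD24 was listed at 0 in every library under its matched identifier, and whether its reads were lost in alignment or counting was not tested. VENins line 4 stood apart in DNTT, with 27.3 CPM against 1.08 to 3.38 CPM in the other VENins and 3.05 to 8.31 CPM in VENsens lines, and in BLNK, with 9.55 CPM against 1.18 to 3.09 and 2.12 to 3.94 CPM. Neither gene passed in edgeR with all lines (log2 fold changes −0.36 and −0.08, adjusted p = 0.79 and 0.939). Without line number 4 DNTT was lower in VENins lines (log2 fold change −1.44, adjusted p = 5.12e-05), while it was 0.49 with no line number in the model. Over the alternatives the log2 fold changes lay between −1.44 and 0.72 for DNTT and between −0.71 and 0.44 for BLNK, so their direction turned. All 5 genes typical of KMT2A-rearranged leukemia were present, led by PROM1 at 419.8 CPM. The most abundant T-cell marker was CD3E at 0.859 CPM, with CD8A at 0. Among monocyte and granulocyte markers CSF1R was highest at 9.51 CPM, with S100A8 and S100A9 at 0. PDGFRB at 13.9 CPM led the stroma list, in which LUM and DCN were at 0, and KDR at 3.09 CPM led the endothelium list, in which CDH5 was at 0. Across these 6 lists 1 of 20 tested genes passed between the conditions, against 0.197% of all tested genes: PAX5, a transcription factor that maintains B-cell identity, which fell from 783 ± 42.9 CPM (SD, n = 5) in VENsens to 631 ± 34.7 CPM (SD, n = 5) in VENins lines. Its log2 fold change was −0.31 with a standard error (SE) of 0.05 and an edgeR adjusted p of 0.0272, and the call was lost without line number 2 (adjusted p = 0.242), 3 (0.0597) or 5 (0.0647), within a range of 1.24e-06 to 0.242 over all alternatives.

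Promoters are shown for IGFBP2, IGF1R and IGF2R, the binding protein and the receptors whose levels in the 5 VENins lines did not overlap those in the 5 VENsens lines. Each window runs from 250 bases before to 50 bases after a transcription start listed by RefSeq (GRCh38.p14, plus strand), at chr2:216633170-216633469 for IGFBP2, chr15:98648289-98648588 for IGF1R and chr6:159968832-159969131 for IGF2R. The reference table had windows for 6 of the 7 members and for IGF2R, and did not list IGFBP7. For IGFBP2, which has 3 windows, the one nearest to the start of the principal transcript was taken. Capitals mark GGGCGG (the GC box) and CACGTG (the E-box), searched on both strands.
IGFBP2: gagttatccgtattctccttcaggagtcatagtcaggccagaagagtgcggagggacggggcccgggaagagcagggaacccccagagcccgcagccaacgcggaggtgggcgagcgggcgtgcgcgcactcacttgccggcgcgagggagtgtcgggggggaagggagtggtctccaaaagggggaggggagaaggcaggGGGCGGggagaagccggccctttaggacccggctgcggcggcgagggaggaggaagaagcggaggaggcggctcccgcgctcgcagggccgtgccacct
IGF1R: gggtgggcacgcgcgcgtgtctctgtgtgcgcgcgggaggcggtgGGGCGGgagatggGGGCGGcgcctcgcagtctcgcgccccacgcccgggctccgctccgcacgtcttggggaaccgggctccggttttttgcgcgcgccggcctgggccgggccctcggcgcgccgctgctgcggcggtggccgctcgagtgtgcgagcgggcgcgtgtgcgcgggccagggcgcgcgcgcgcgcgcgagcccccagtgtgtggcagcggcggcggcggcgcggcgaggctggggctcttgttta
IGF2R: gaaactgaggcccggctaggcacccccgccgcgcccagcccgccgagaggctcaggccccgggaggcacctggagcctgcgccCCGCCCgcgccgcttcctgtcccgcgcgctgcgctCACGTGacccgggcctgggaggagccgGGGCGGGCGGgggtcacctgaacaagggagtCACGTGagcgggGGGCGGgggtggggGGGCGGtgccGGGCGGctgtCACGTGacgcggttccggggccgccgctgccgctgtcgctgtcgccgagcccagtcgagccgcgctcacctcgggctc
The window of IGFBP2 had 1 GC box and no E-box, that of IGF1R had 2 GC boxes and no E-box, and that of IGF2R had 6 GC boxes and 3 E-boxes. GC boxes were found in 45.0% and E-boxes in 7.26% of 35116 promoter windows of the same 300 bases. The letters TGTTTAC, bound by FOXO factors, were in 3.42% of windows and in none of these 3 on either strand. GC content was 70% for IGFBP2, 79.7% for IGF1R and 78.7% for IGF2R. INSR and IRS1 each had 4 GC boxes, IRS2 had 5 and IGFBP4 had 2, and among these 4 windows an E-box was found in that of IRS1 alone. These matches describe the letters of the windows, and binding was not measured.

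Ligand transcripts were at or near 0. INS and IGF2 had 0 counts in all 10 libraries, and IGF1 had 4 counts in all. A count of 0 allows up to 3 counts, which is between 0.106 and 0.145 CPM depending on the library and covers counting error only. INS and IGF2 share exons with a read-through gene, and reads on several genes were not counted. Between 3.69% and 3.98% of the reads of each library were of this kind. IGF ligands from serum in the medium were not measured.

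IGFBP2 was at a high level in every line and higher in VENins lines. It had 148, 129, 137, 145 and 148 CPM in VENsens lines 1 to 5, and 166, 160, 174, 173 and 187 CPM in VENins lines 1 to 5. The highest VENsens line thus lay below the lowest VENins line, as the choice of the gene on this contrast would give. Mean levels were 141 ± 8.34 CPM (SD, n = 5) in VENsens and 172 ± 9.98 CPM (SD, n = 5) in VENins lines, with a log2 fold change of 0.28 (SE 0.05). Over the 16 alternative analyses the log2 fold change was between 0.25 and 0.31, and it was 0.30 with the length and GC trend taken out. Between lines of a condition, log2 CPM of IGFBP2 had an SD of 0.09 in VENsens and 0.08 in VENins, while counting alone would give 0.02 in each. In bulk RNA, a larger share of cells with the transcript and more transcript per cell cannot be told apart.

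**Figure D1:**
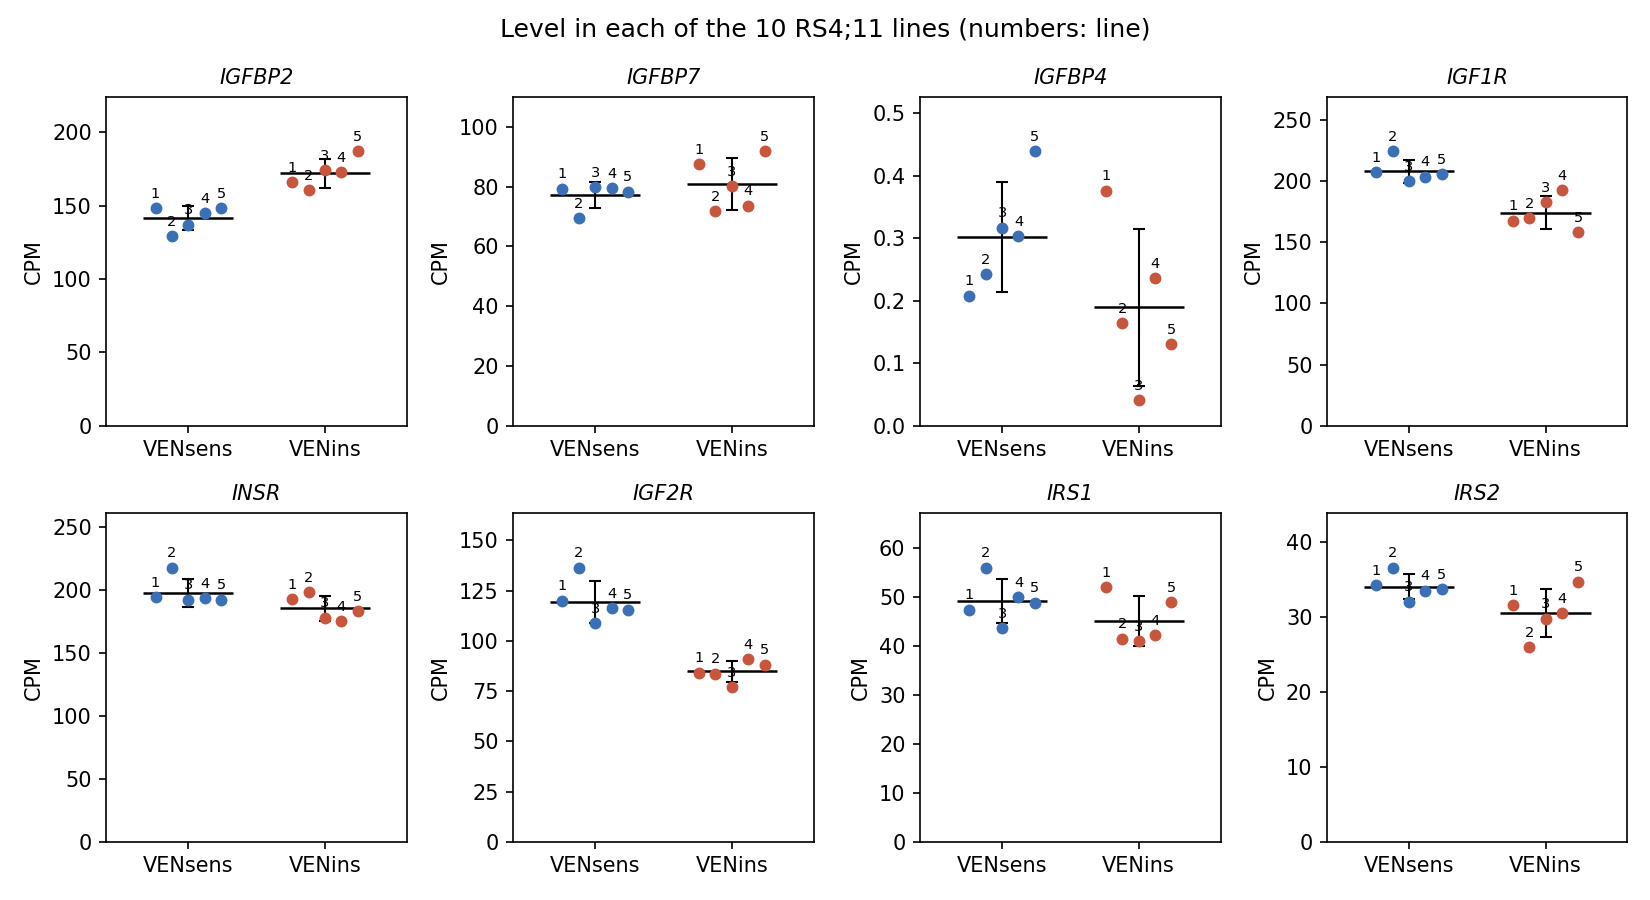
Level in CPM (vertical axes, from 0) of the 7 members and IGF2R in each library, with VENsens in blue and VENins in red; numbers give the line, horizontal bars the mean and error bars the SD of 5 lines. VENsens and VENins lines do not overlap for IGFBP2, IGF1R and IGF2R, and they overlap for the other genes shown.

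IGFBP7, a secreted relative that binds IGFs only weakly, was the other binding protein with a high level. Its values were 79.3, 69.5, 79.9, 79.4 and 78.3 CPM in VENsens lines 1 to 5, and 87.6, 71.8, 80.2, 73.6 and 91.8 CPM in VENins lines 1 to 5. VENins lines 1, 3 and 5 were above all VENsens lines, line 3 by little, lines 2 and 4 were below 4 of the 5 VENsens lines, and the groups overlapped. VENins lines differed by 0.06 (SE 0.06) on the log2 scale, with an edgeR adjusted p of 0.649. Over 16 alternatives this difference lay between 0.02 and 0.11, and none passed. IGFBP7 shares 270 exon bases with POLR2B on the opposite strand, which had 39327 counts in all libraries against 18980 for IGFBP7, so some of its reads may be uncertain or uncounted.

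The remaining binding proteins were close to 0. IGFBP4, which holds IGFs until it is cut by the protease PAPPA, had 59 counts in all 10 libraries, between 1 and 11 each, and did not pass the filter on low counts. Its level was between 0.208 and 0.439 CPM in VENsens and between 0.0407 and 0.376 CPM in VENins lines. These were 37 counts over the VENsens and 22 over the VENins lines, and a difference was not tested. IGFBP5 had 6 and IGFBP6 had 8 counts in all, and IGFBP1, IGFBP3 and IGFBPL1 had 0. IGFALS, the acid-labile subunit that holds the ligand and its binding protein in a larger complex in blood, had 118 counts and a log2 fold change of 0.46 (SE 0.31, edgeR adjusted p = 0.486). Over 13 alternatives its log2 fold change lay between 0.15 and 0.68, and none passed.

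IGFBP2 and IGFBP5 lie next to each other on chromosome 2, and only IGFBP2 was found above a few counts. Of 41 annotated genes within 1 Mb of IGFBP2, 8 were tested, and none of these passed in edgeR or in any alternative that gave it an adjusted p (DESeq2 gave none for PECR, PSMB3P2 and DIRC3), against 0.197% of all tested genes in edgeR. At an unadjusted p under 0.05 there was 1 of 8, against 16.2% of all tested genes. That gene was RPL37A, a ribosomal protein gene, at 777 ± 16.3 CPM (SD, n = 5) in VENsens and 846 ± 42.1 CPM (SD, n = 5) in VENins lines, a log2 fold change of 0.12 (SE 0.05, edgeR adjusted p = 0.238). PECR, an enzyme of fatty acid elongation, had a log2 fold change of −0.29 (SE 0.15) at about 2 CPM. The other 6 had log2 fold changes of 0.04 (MREG), 0.00 (XRCC5), −0.01 (LINC01963), −0.01 (SMARCAL1), 0.05 (PSMB3P2) and 0.09 (DIRC3).

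Likeness to IGFBP2 was described by Pearson's r of log2 CPM over the 10 libraries, for 9631 other protein-coding genes with at least 5 CPM. Among the most alike were PSPC1 (r = 0.944), SLC27A4 (0.926), PSMA7 (0.918) and SRSF7 (0.917). After each condition was centered on its mean, r was 0.727, 0.843, 0.731 and 0.56 in the same order. The 5 most opposed were ARSD (r = −0.959), WDR44 (−0.952), GNE (−0.952), DDX60L (−0.943) and LRCH1 (−0.935), with centered values of −0.799, −0.767, −0.851, −0.91 and −0.903. Within the axis, r with IGFBP2 was −0.86 for IGF2R, −0.84 for IGF1R and −0.785 for INSR, 0.541 for IGFBP7, −0.42 for IRS1 and −0.39 for IRS2, and it was −0.802 for CBLB and −0.68 for ITGA5. Centered values were −0.228, −0.368, −0.737, 0.662, −0.0821, 0.391, 0.0485 and −0.021 in the same order, with the sign turned for IRS2 and CBLB, so for IGF1R and IGF2R the values were nearer to 0 within the conditions than over all libraries. These libraries share the length trend described above, and its part in the values was not tested.

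Among the receptors, IGF1R was lower in VENins lines by a margin that missed the threshold in edgeR with the line number, all lines and the filter on low counts. IGF1R had 207, 224.5, 200.3, 204 and 206 CPM in VENsens lines 1 to 5, and 168, 169.8, 183, 193 and 158 CPM in VENins lines 1 to 5. Every VENins line was below every VENsens line, with VENins line 4 nearest to them. This was a log2 fold change of −0.26 (SE 0.06), with an edgeR adjusted p of 0.0783. Other analyses placed it on either side of the threshold, with adjusted p between 0.00201 and 0.484 and 7 of 16 alternatives under 0.05. IGF1R passed in edgeR with no line number in the model (log2 fold change −0.26, adjusted p = 0.0403). With the line number kept, it passed in DESeq2 (adjusted p = 0.0122) and in edgeR with no filter on low counts (adjusted p = 0.00225). It also passed in edgeR without line number 4 (adjusted p = 0.026). Its log2 fold change became −0.17 (adjusted p = 0.0923) with the length and GC trend taken out.

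INSR had 194, 218, 192, 193 and 192 CPM in VENsens lines 1 to 5, and 193, 198, 178, 175 and 183 CPM in VENins lines 1 to 5. VENsens line 2 was the highest and the groups overlapped. INSR had a log2 fold change of −0.09 (SE 0.05, edgeR adjusted p = 0.374) and −0.02 (adjusted p = 0.876) with the length and GC trend taken out. The related orphan receptor INSRR had 54 counts in all libraries and was not tested.

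Because cells with more IGF1R relative to INSR carry a different mix of receptor dimers, the ratio of both transcripts per exon length was compared. It was 0.8, 0.773, 0.781, 0.79 and 0.803 in VENsens lines 1 to 5, and 0.652, 0.643, 0.771, 0.823 and 0.649 in VENins lines 1 to 5. VENins lines 1, 2 and 5 lay below all VENsens lines, line 3 just below them and line 4 above them. The mean log2 ratio was −0.34 ± 0.02 (SD, n = 5) in VENsens and −0.51 ± 0.17 (SD, n = 5) in VENins lines, a difference of −0.17 (two-sided exact permutation test, p = 0.119). Without line number 4 the difference was −0.22 and the exact permutation p was 0.0286, which is the smallest that 4 lines against 4 can give. Line 4 is the VENins line above all VENsens lines, and without line number 1, 2, 3 or 5 the differences were −0.13, −0.14, −0.20 and −0.13, with p of 0.314, 0.286, 0.143 and 0.314. The ratio itself depended on the length used: per principal transcript, a length chosen after the values were seen, its mean was 0.406 ± 0.00653 (SD, n = 5) in VENsens and 0.364 ± 0.0432 (SD, n = 5) in VENins lines, against 0.789 and 0.707 with merged exons, while the log2 difference does not depend on length.

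IGF2R was the only receptor that passed in edgeR with the line number, all lines and the filter on low counts, and it was lower in VENins lines. It had 120, 136, 109, 116 and 115 CPM in VENsens lines 1 to 5, and 84.1, 83.7, 77, 91 and 88.2 CPM in VENins lines 1 to 5. All VENins lines, line 4 included, were below all VENsens lines. The means were 119 ± 10.3 CPM (SD, n = 5) and 84.8 ± 5.31 CPM (SD, n = 5), and the log2 fold change was −0.49 (SE 0.06, edgeR adjusted p = 0.00245). The call held in all 16 alternatives, with adjusted p between 2.06e-11 and 0.0373 and log2 fold changes between −0.53 and −0.40. The fold change nearest to 0 was the one with the length and GC trend taken out (adjusted p = 0.00195), and the highest adjusted p was the one without line number 2.

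The docking proteins did not pass the test. IRS1 had 47.3, 55.9, 43.6, 49.9 and 48.8 CPM in VENsens lines 1 to 5, and 52, 41.4, 41, 42.1 and 48.8 CPM in VENins lines 1 to 5. IRS2 was between 32.1 and 36.6 CPM in VENsens and between 26 and 34.8 CPM in VENins lines. For both genes the groups overlapped, with VENins lines 2, 3 and 4 below all VENsens lines in IRS1 and lines 1 to 4 below all of them in IRS2. The log2 fold changes were −0.13 (SE 0.07, edgeR adjusted p = 0.432) for IRS1 and −0.16 (SE 0.08, edgeR adjusted p = 0.312) for IRS2, and neither passed in any of 16 alternatives. They moved toward 0 with the length and GC trend taken out, to −0.05 (adjusted p = 0.735) and −0.10 (0.421), and without line number 2, to −0.05 (0.897) and −0.08 (0.805).

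Over the members, 6 of 7 passed the filter on low counts. Besides IGFBP2, 0 of the 5 tested passed in edgeR, against 0.197% of all 16756 tested genes (33 genes, 27 of them lower in VENins lines). At an unadjusted p under 0.05 the count was 1 of 5, which was IGF1R, against 16.2% of all tested genes. In DESeq2 1 of 5 passed, again IGF1R, against 1.69% of the 12857 genes to which DESeq2 gave an adjusted p. The 5 VENsens and 5 VENins lines did not overlap in 1 of these 5 members, against 4.66% of all tested genes. Besides IGFBP2, 1 of the 5 members had a log2 fold change above 0, and the median was −0.13 against 0.00 for all tested genes, or −0.05 with the length and GC trend taken out.

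**Figure D2:**
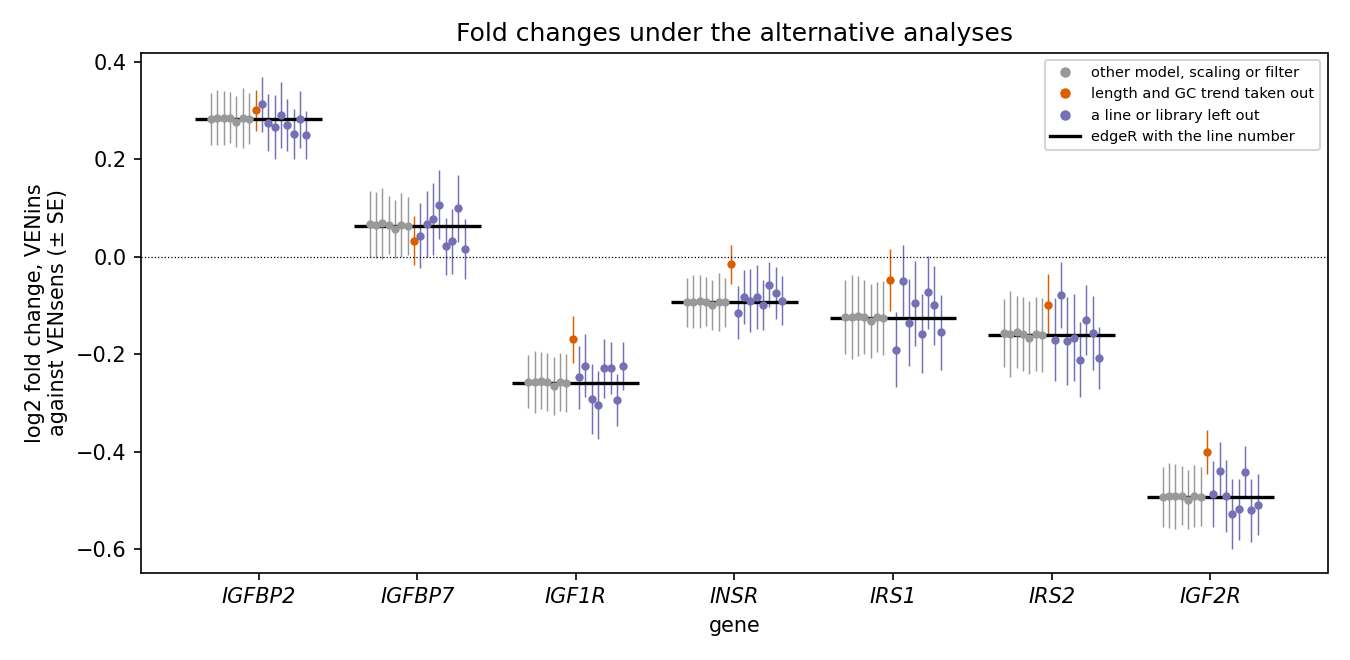
Log2 fold change of VENins against VENsens lines (vertical axis, ± SE) for the 6 tested members and IGF2R (horizontal axis), with the black bar for edgeR with the line number and points for 16 alternative analyses. IGFBP2 stays between 0.25 and 0.31 and IGF2R between −0.53 and −0.40, and the values of IGF1R, INSR and IGF2R nearest to 0 are those with the length and GC trend taken out.

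Levels of different genes were compared as CPM per kilobase of merged exon length. By this measure IGFBP7 was highest of the members, with 40.0 ± 2.27 (SD, n = 5) in VENsens and 42.0 ± 4.5 (SD, n = 5) in VENins lines. IGFBP2 followed with 29.7 ± 1.75 (SD, n = 5) and 36.1 ± 2.09 (SD, n = 5). Then came INSR with 18.9 ± 1.06 and 17.8 ± 0.934, and IGF1R with 14.9 ± 0.676 and 12.5 ± 0.96. IRS1 with 4.93 ± 0.452 and 4.53 ± 0.505, IRS2 with 4.18 ± 0.203 and 3.75 ± 0.388, and IGFBP4 with 0.137 ± 0.0402 and 0.086 ± 0.0571 closed the order. Over all 10 lines the ranges of IGFBP7 and IGFBP2 overlapped, as did those of IRS1 and IRS2, while INSR (16.8 to 20.8) lay above IGF1R (11.4 to 16.1).

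The first places in this order depended on the length used. The merged exons of IGFBP2 cover 4767 bases, while its principal transcript has 1439, against 1930 and 1427 bases for IGFBP7. Per kilobase of the principal transcript, a length chosen after the values were seen, IGFBP2 was highest with 98.3 ± 5.79 (SD, n = 5) in VENsens and 119.6 ± 6.94 (SD, n = 5) in VENins lines. IGFBP7 then had 54.2 ± 3.07 (SD, n = 5) and 56.8 ± 6.09 (SD, n = 5). With either length, IGFBP2 and IGFBP7 were the binding proteins these cells transcribed well above the others.

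**Figure D3:**
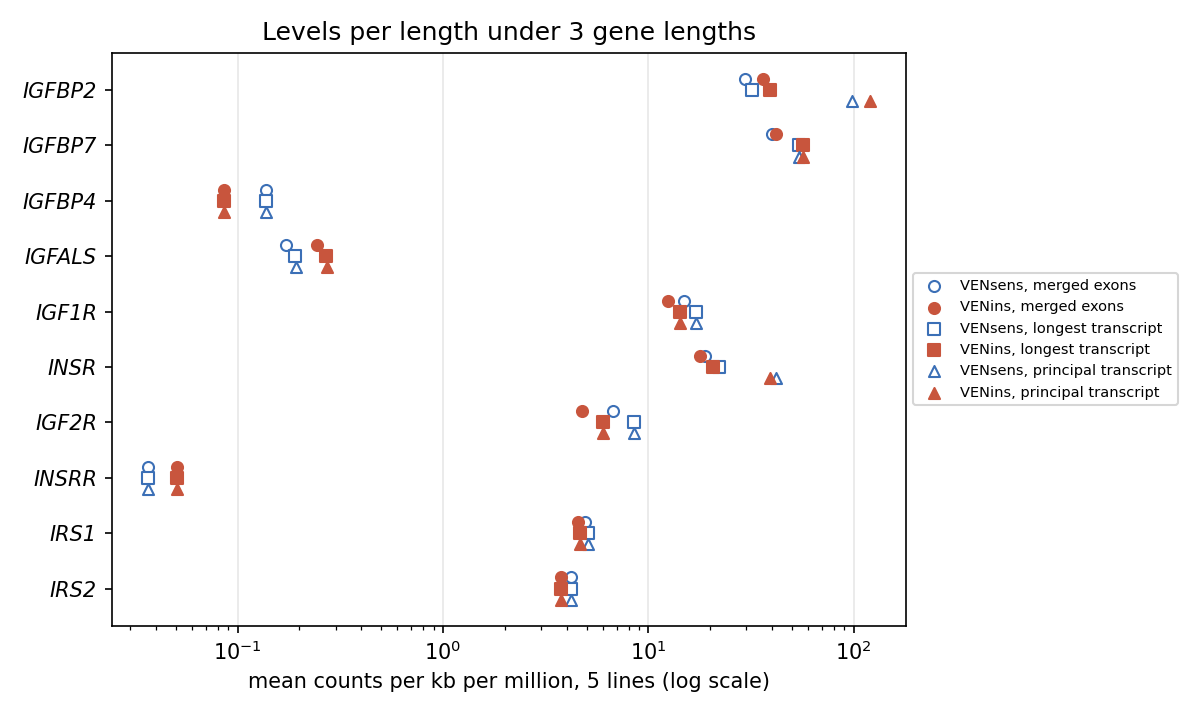
Mean level of 10 genes of the axis in CPM per kilobase (horizontal axis, log scale), for VENsens (open blue) and VENins lines (filled red), with merged exon length (circles), longest transcript (squares) or principal transcript (triangles). IGFBP2 moves from below to above IGFBP7 when the principal transcript is used, and IGFBP4, IGFALS and INSRR stay below 1.

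The wider axis was described with lists of 114 genes, of which 113 were matched and 90 tested. Besides IGFBP2, 3 of 89 passed in edgeR, against 0.197% of all tested genes, and all 3 were lower in VENins lines, a direction in which 0.161% of all tested genes passed. At an unadjusted p under 0.05 there were 27 of 89 (23 lower in VENins lines), against 16.2%. The 3 genes that passed at an adjusted p were IGF2R, the integrin chain gene ITGA5 and the ubiquitin ligase gene CBLB. Of the 89, 26 had a log2 fold change above 0, and their median was −0.04 against 0.00 for all tested genes, of which 51.1% were above 0. With the length and GC trend taken out 41 of 89 were above 0 and the median was −0.01; length and GC were taken out together, so their parts cannot be told apart.

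**Figure D4:**
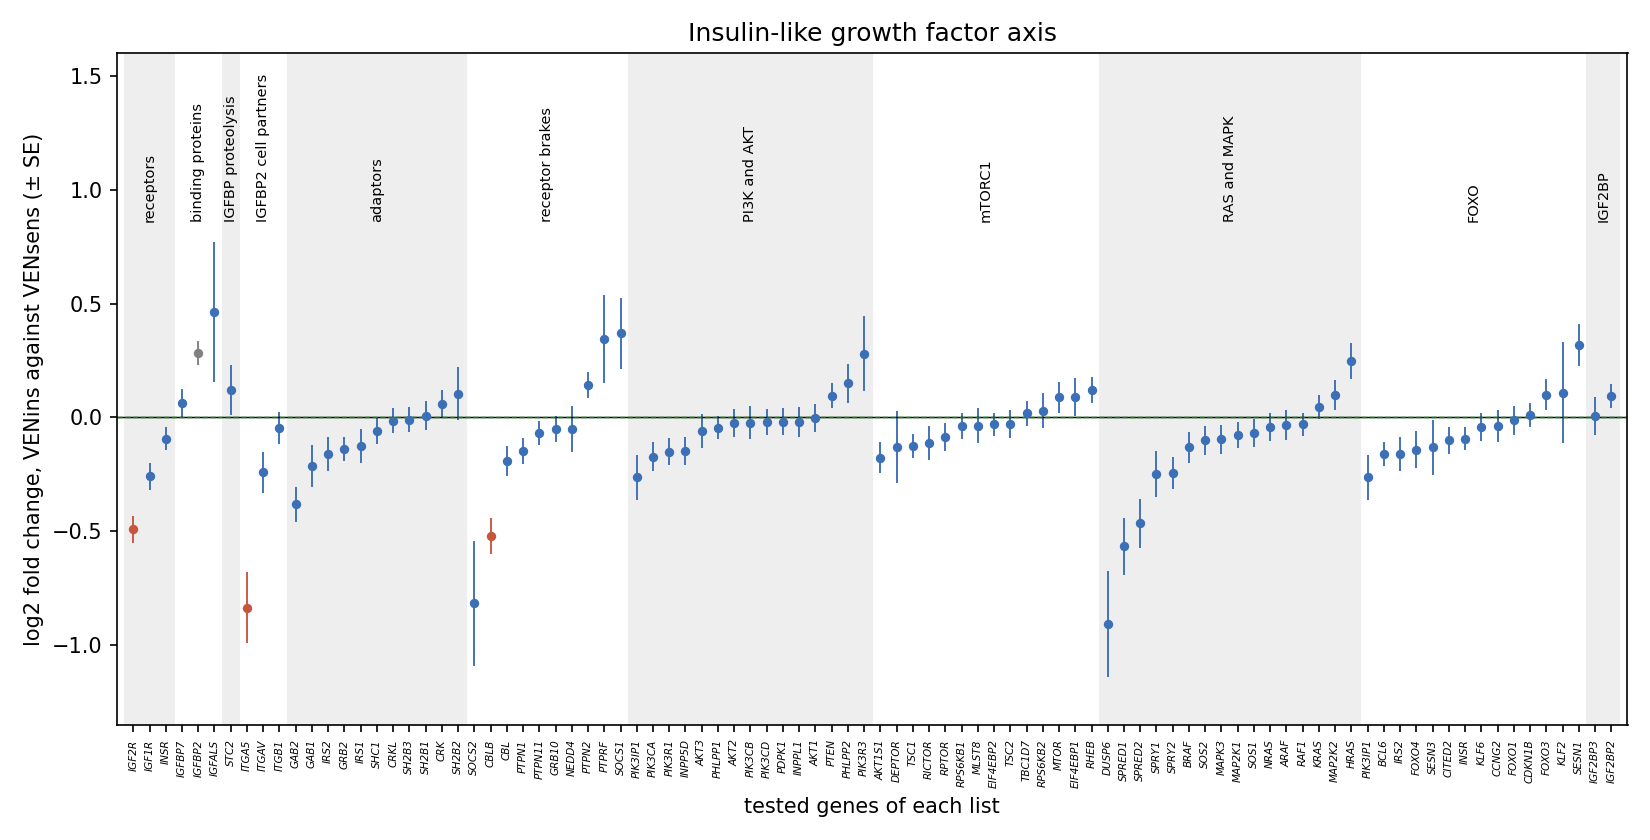
Log2 fold change of VENins against VENsens lines (vertical axis, ± SE) for tested genes of each list (horizontal axis; a gene on 2 lists is drawn in both). Red marks genes that passed in edgeR, grey marks IGFBP2, which was given no test, and the dashed line is the median of all tested genes; IGF2R, ITGA5 and CBLB are the 3 red genes, all below 0.

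CBLB encodes a ligase that marks active receptors and their adaptors for degradation. It had 62.1, 64.5, 56.4, 54.2 and 60.6 CPM in VENsens lines 1 to 5, and 39.7, 37.5, 41.4, 48.8 and 40.6 CPM in VENins lines 1 to 5. All VENins lines were below all VENsens lines, with line 4 the nearest. The log2 fold change was −0.52 (SE 0.08, edgeR adjusted p = 0.0131). The call was lost without line number 2 (adjusted p = 0.198) or 5 (0.0563), within a range of 1.89e-10 to 0.198 over 16 alternatives. In this list of receptor brakes, 1 of 10 tested genes passed, against 0.197% of all tested genes, and 6 had an unadjusted p under 0.05 (4 lower and 2 higher in VENins lines), against 16.2%. The median log2 fold change was −0.06.

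ITGA5 encodes the α5 chain of the fibronectin receptor, one of the surface proteins that IGFBP2 is described to bind. It had 37.5, 42.4, 39.8, 38.2 and 41.1 CPM in VENsens lines 1 to 5, and 18.3, 16.6, 25.3, 41.1 and 16.4 CPM in VENins lines 1 to 5. VENins line 4 was at the level of the VENsens lines, and the other 4 were far below them. The log2 fold change was −0.84 (SE 0.16, edgeR adjusted p = 0.0425), and 6 of 16 alternatives passed, within a range of 4.34e-23 to 0.429. The call was lost without line number 1 (adjusted p = 0.0605), 2 (0.429), 3 (0.0585) or 5 (0.0996), and without line number 4 the log2 fold change was −1.09 (adjusted p = 2.25e-05). It was also lost with no line number in the model (0.0602), in DESeq2 with (0.0616) and without it (0.0585), with at least 10 counts asked of every library (0.0603), and, with no line number, without VENsens line 2 (0.146) or VENins line 5 (0.0543). Of the other partners of IGFBP2, ITGAV had 8.38 ± 0.275 CPM (SD, n = 5) in VENsens and 7.1 ± 0.267 CPM (SD, n = 5) in VENins lines (edgeR adjusted p = 0.208), ITGB1 had a log2 fold change of −0.05, and ITGB3 and PTPRZ1 had 5 and 0 counts.

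VENins line 4 also stood apart in SOCS2 and DUSP6, which were chosen after their values were seen. SOCS2, an inhibitor of cytokine and growth hormone receptors, had 32.3, 37.6, 92, 197.6 and 44.1 CPM in VENins lines 1 to 5, against 101 to 125 CPM in VENsens lines. DUSP6, the ERK phosphatase, had 11.1, 12.2, 27.3, 46.3 and 11.5 CPM in VENins lines 1 to 5, against 31.6 to 41.4 CPM in VENsens lines. In both genes VENins lines 1, 2, 3 and 5 were below all VENsens lines and line 4 was above all of them. With all lines and the filter on low counts, edgeR adjusted p was 0.175 for SOCS2 (log2 fold change −0.82, SE 0.27) and 0.0974 for DUSP6 (−0.91, SE 0.23). With no filter, edgeR called SOCS2 (log2 fold change −0.82, SE 0.07, adjusted p = 3.45e-29) and DUSP6 (−0.90, SE 0.08, adjusted p = 5.16e-25). These SEs were smaller than with the filter at nearly the same fold changes, and why was not tested. With VENins lines as far apart as in SOCS2, such adjusted p do not reflect the spread between lines. The lowest adjusted p given here for IGF2R, CBLB, ITGA5 and SPRED1 come from the same fit. The fold changes of SOCS2 and DUSP6 depended on the model and the lines: with no line number in the model they were −0.46 and −0.70, and over the 16 alternatives they lay between −1.26 and −0.31 for SOCS2 and between −1.27 and −0.54 for DUSP6.

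VENins line 4 was also the highest VENins line in GAB2, SPRED1 and SPRED2, while in SOCS1, a relative of SOCS2, it was the lowest, at 5.66 CPM against 7.57 to 14.8 CPM in the other VENins lines. SOCS1 passed in 1 of 16 alternatives, edgeR with no filter on low counts (log2 fold change 0.37, adjusted p = 0.0303). GAB2, an adaptor that recruits PI3K, had 136, 125, 146, 187 and 122 CPM in VENins lines 1 to 5, against 175 to 190.2 CPM in VENsens lines (log2 fold change −0.38, SE 0.08, edgeR adjusted p = 0.0552). SPRED1 and SPRED2, inhibitors of RAS to RAF signaling, had log2 fold changes of −0.57 (SE 0.12, edgeR adjusted p = 0.0691) and −0.47 (SE 0.11, edgeR adjusted p = 0.081), with VENins line 4 inside the range of the VENsens lines. SPRED1 passed with the length and GC trend taken out (−0.52, adjusted p = 0.0438), within a range of 3.39e-10 to 0.484 over the alternatives. Without line number 4, 12 of 89 axis genes passed, against 1.97% of all tested genes in that fit. They were IGF1R, IGF2R, ITGA5, GAB1, GAB2, SOCS2, CBLB, DUSP6, SPRY2, SPRED1, SPRED2 and SESN1, and all but SESN1, a stress-induced inhibitor of mTORC1, were lower in VENins lines. With a single library left out, analyses added after the values were seen and fitted with no line number in the model, 13 passed without VENins line 4 (against 4.65% of all tested genes), 5 without VENins line 5 (against 2.97%) and 2 without VENsens line 2 (against 0.154%). The same model with all 10 libraries called 3 of the 89, against 0.889% of all tested genes.

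**Figure D5:**
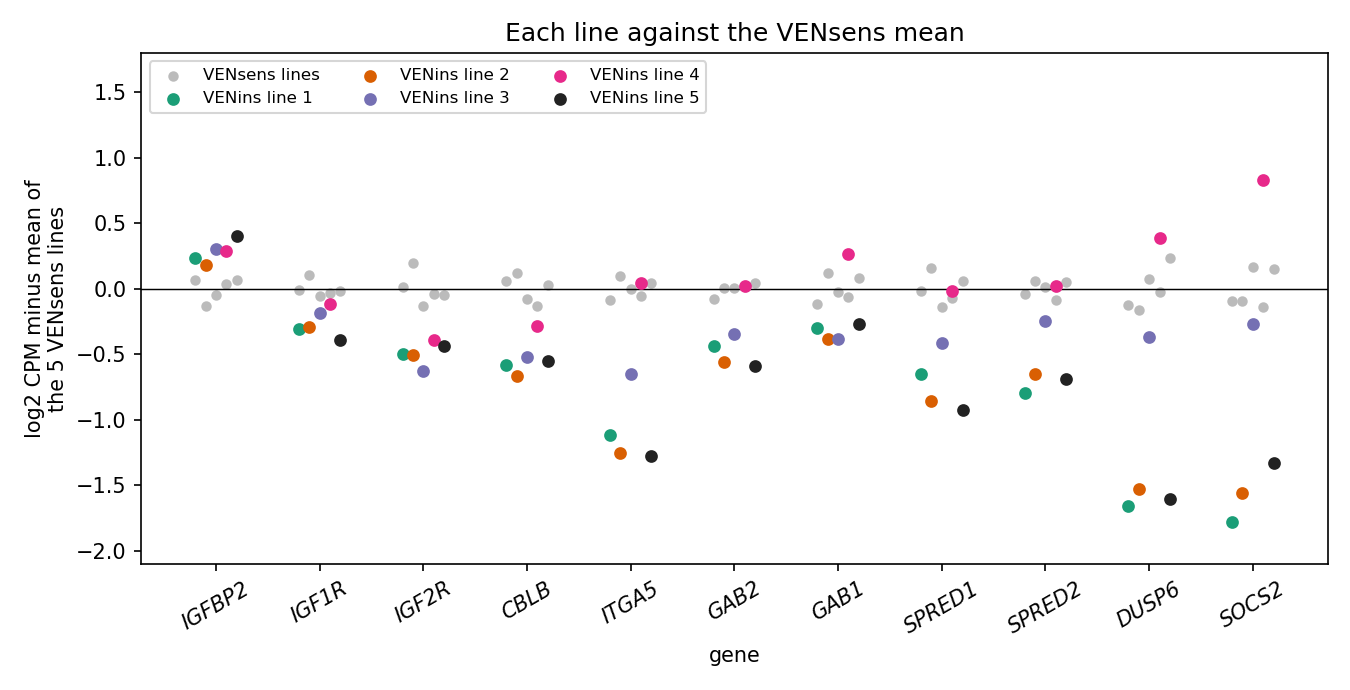
Log2 CPM of each line minus the mean of the 5 VENsens lines (vertical axis) for 11 genes of the axis (horizontal axis), with VENsens lines in grey and VENins lines in color. VENins line 4 lies within the VENsens lines for ITGA5, GAB2, SPRED1 and SPRED2 and above them for GAB1, DUSP6 and SOCS2; IGFBP2, picked on this contrast, is shown beside them.

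Downstream branches held no gene that passed in edgeR with all lines, the line number and the filter on low counts. At an unadjusted p under 0.05, the share of all tested genes was 16.2%. Among PI3K and AKT genes, 0 of 15 tested passed in edgeR (4 at an unadjusted p under 0.05), and the median difference was −0.02 on the log2 scale. The highest levels per merged exon length were those of PIK3CD, INPPL1 and PHLPP1, with log2 fold changes of −0.02, −0.02 and −0.05. Among mTORC1 genes, 0 of 14 passed (2 at an unadjusted p under 0.05) with a median of −0.03, and the most abundant were EIF4EBP1 (0.09), EIF4EBP2 (−0.03) and RHEB (0.12). Among RAS and MAPK genes, 0 of 17 passed (6 at an unadjusted p under 0.05) with a median of −0.08, and NRAS (−0.04) and SPRY2 (−0.25) were among the most abundant. Each value in parentheses after a gene is its log2 fold change. DESeq2 with the line number called 4 of the 89 axis genes (IGF1R, IGF2R, GAB2 and CBLB), none of them in these 3 lists. In that fit 1.69% of all genes with an adjusted p passed. DESeq2 with no line number called 739 genes in all. Of the 89 axis genes it called 10, among them HRAS (log2 fold change 0.25, adjusted p = 0.0418), SPRY2 (−0.24, 0.0336) and SPRED1 (−0.54, 0.0421) of the RAS and MAPK list. In edgeR, SPRED1 of that list passed with the length and GC trend taken out, and DUSP6, SPRY2, SPRED1 and SPRED2 with no filter.

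Of the adaptors, 0 of 11 tested passed in edgeR (3 at an unadjusted p under 0.05) and GAB2 alone in DESeq2 with the line number, while DESeq2 with no line number called GAB2 and GRB2 (adjusted p = 0.0308), and the median log2 fold change was −0.06, with IRS4 at 0 counts. The most abundant per length were CRKL, with a log2 fold change of −0.01, GRB2 with −0.14 and GAB2 with the value above. FOXO factors are held out of the nucleus by AKT, and their list, which includes IRS2 and INSR as genes they raise, had 0 of 14 passing in edgeR or in DESeq2 with the line number (3 at an unadjusted p under 0.05) and a median of −0.07. DESeq2 with no line number called BCL6 (adjusted p = 0.0136) and SESN1 (0.0351) of this list. In edgeR with no filter, GAB1 and GAB2 of the adaptors and SESN1 of this list passed, and GAB2 also with library size alone as scaling. The unadjusted counts of the adaptors and of this list stand against the 16.2% of all tested genes. Besides INSR, its most abundant genes per length CDKN1B and BCL6 had log2 fold changes of 0.01 and −0.16. TXNIP was listed at 0 under its matched identifier.

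Proteolysis of binding proteins was represented by STC2 alone, an inhibitor of PAPPA, with 10.1 ± 2.21 CPM (SD, n = 5) in VENsens and 10.9 ± 2.01 CPM (SD, n = 5) in VENins lines (edgeR adjusted p = 0.641). PAPPA had 14, PAPPA2 had 37 and ADAM12 had 14 counts in all libraries, and HTRA1 and STC1 had 0. Of the RNA-binding proteins named for IGF2 mRNA, IGF2BP1 had 0 counts. IGF2BP2 had 99.5 ± 4.09 CPM (SD, n = 5) in VENsens and 106 ± 2.02 CPM (SD, n = 5) in VENins lines, groups that did not overlap (log2 fold change 0.09, SE 0.05, edgeR adjusted p = 0.403). IGF2BP3 had a log2 fold change of 0.01 (SE 0.08).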

How the data were processed

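RNA-Seq counts of 10 RS4;11 libraries were used, 5 VENsens and 5 VENins, grouped by their titles. The authors deposited raw counts of reads per Ensembl gene for each library, without normalization. According to the submitters' processing notes, bcl2fastq 2.20.0.422, Bowtie2 2.3.5.1, SAMtools 1.9 and HTSeq 0.9.1 were used with hg19/GRCh37. The kit does not mark strand, and the strand setting of the counting was not given in the sources used here. Of the reads, 52.7% to 54.2% were counted on a gene, and the summary lines for the rest stayed out of library sizes and tests. Symbols, lengths and neighbors were matched by identifier to GENCODE 29, which is on another build than the files and named 52526 of 63677 identifiers; unnamed ones held 0.907% of counts. SOCS7 was not matched.

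Counts were filtered with edgeR's filterByExpr (minimum count 10, minimum total 15), scaled by TMM and tested with the edgeR quasi-likelihood F test with the line number in the model, since the study describes a paired RNA analysis. Benjamini-Hochberg adjustment covered the 16756 genes tested, and an adjusted p under 0.05 was called. Log2 CPM used a prior count of 2. SE was derived from the F statistic. R 4.3.3, edgeR 4.0.16, DESeq2 1.42.0, limma 3.58.1, Python 3.11.15, numpy 2.4.6, pandas 2.3.3, scipy 1.17.1 and matplotlib 3.10.9 were used, and the fits were tested on simulated counts. The length and GC trend was taken out with splines of 4 degrees of freedom per library.

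Members and gene lists were chosen with earlier results of these data known. All 7 members, ligands, receptors and binding proteins were named; of other lists, the genes that passed or, where none did, up to 3 with the highest level per length; tested neighbors within 1 Mb; the 5 genes most and least like IGFBP2; and the most abundant markers and those at 0. Of the genes these rules name, 2 are not reported here. The genes GAB1, SOCS2, DUSP6, SPRED1, SPRED2, SESN1, ITGAV, ITGB1, DNTT, BLNK, SOCS1 and HRAS, and GAB2 beyond its place by level, were chosen after their values were seen. For the 20 pairs of libraries within a condition, chi-square per degree of freedom ranged from 1.93 to 14.3, above counting error. Alternatives were no line number, DESeq2, other scalings and filters, the length and GC trend, other gene lengths, a prior count of 0.5, and lines left out.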

Additional observations from a re-analysis of the deposited data

Results flagged for a closer look

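In both conditions, the gap between the most extreme of the 5 lines and its nearest neighbor was divided by the range of log2 CPM, and the ratio was compared with 0.71, Dixon's critical value for 5, which chance passes in about 1 in 20 groups. For the 33 genes looked at first, 2 of 66 groups were above it, fewer than the 3.3 that chance would give. When all 61 genes given with values by line or level were included, 8 of 122 groups were above it. Of the genes in these added groups, PSMA7, ARSD, GNE and DDX60L were chosen for likeness to IGFBP2, which is itself lowest in VENsens line 2, and GAB1 after its values were seen, so a chance count does not apply. Of these 8, 7 concerned VENsens line 2, so they are not separate findings.

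In VENsens line 2, IGFBP7 had 69.5 CPM against 78.3 to 79.9 CPM in the other VENsens lines (ratio 0.86), and INSR had 218 CPM against 192 to 194 CPM (ratio 0.92). Without line number 2 neither gene passed the test. In the same library CSF1R had 6.15 CPM against 9.17 to 9.65 CPM (ratio 0.887), PSMA7 had 119.8 CPM against 131 to 134 CPM (ratio 0.809), ARSD had 87.6 CPM against 79.2 to 81.3 CPM (ratio 0.746), GNE had 77.3 CPM against 67.8 to 69.3 CPM (ratio 0.829) and DDX60L had 30.5 CPM against 25.6 to 26.8 CPM (ratio 0.739). In VENins line 4, GAB1 had 124 CPM against 78.7 to 85.3 CPM in the other VENins lines (ratio 0.823).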

How the results depend on the processing

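The log2 fold change of IGFBP2 was between 0.25 and 0.31 in all 16 alternatives. Of 725 alternative values for the other named genes, 664 kept their side of the threshold and none reversed a call, while 46 gained and 15 lost it. The 33 genes called became 149 with no line number as replicate block, 217 in DESeq2 with the replicate block, 739 in DESeq2 with no block, 664 with no filter on low counts, 157 with the length and GC trend taken out together with the replicate block, and between 6 and 331 without a line number. With a single library left out and no line number in the model, where 149 is the number with all libraries, they became 783 without VENins line 4, 502 without VENins line 5 and 26 without VENsens line 2. Besides IGFBP2, the members called changed from 0 to 1 with no block, in DESeq2 with and with no block and with no filter, and were 0 to 1 with a line or library left out. Axis genes called changed from 3 to 10 in DESeq2 with no block, to 13 with no filter, and to between 1 and 12 without a line number. With no line number in the model they were 3 with all libraries, 13 without VENins line 4, 5 without VENins line 5 and 2 without VENsens line 2. DESeq2 with the block called 4 of the 89. The cause of these changes was not tested.

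The line numbers did not pair the libraries: the correlation of deviations of same-numbered libraries over 11361 genes was −0.298, 0.116, −0.0258, −0.0192 and −0.178. With no block, 149 genes and 1 member passed, and ITGA5 lost its call (adjusted p = 0.0602).

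The IGF1R to INSR log2 ratio differed by −0.22 to −0.13 with a line left out, and by −0.17 with any length. The IGFBP2 to IGFBP7 ratio per length, 0.803, was 0.641 with the longest and 1.97 with the principal transcript. The single-library omissions and the principal transcript were chosen after seeing the data. Genes near 0 rest on few counts.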
